A study of Mus musculus with 6 samples.

Results

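In the sciatic nerves, 53 transcribed loci without a gene symbol were lower by at least 4-fold in the libraries labelled as *Adar1* mutants. They were chosen from 35979 features without a symbol, out of 59485 features in the table. A locus was chosen when every control library had a normalised read count of at least 100 and every mutant library had at most 0.25 times the lowest control value. The levels in both genotypes therefore chose the loci, and these levels are given as a description. The loci are called by their FAST DB identifiers (GSMG numbers), and their coordinates are those of the mouse build mm10.

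Sciatic nerves were taken at postnatal day 4 (P4) of 3 animals per genotype, with 1 library of oriented cDNA from poly-A RNA for each animal. Mutants carried Ht-PA-Cre, 2 floxed *Adar1* alleles and the R26R YFP tracer, so that Cre under the human tissue plasminogen promoter deletes *Adar1* in neural crest (NC) cells and their derivatives. Controls are labelled wild-type, and the methods use wild-type for animals with floxed *Adar1* and R26R but no Cre, while the study also counts heterozygous animals with Cre as controls elsewhere. A nerve holds Schwann cells (SCs), fibroblasts, perineurial and endothelial cells and blood, each value is a sum over these cells, and fewer cells of a type and less RNA per cell cannot be told apart. The targeted gene *Adar* had normalised read counts of 1602, 2066 and 1133 in control replicates 1 to 3 and of 11769, 9311 and 9773 in mutant replicates 1 to 3. This is a log2 difference of 2.72 (standard error 0.20, limma adjusted p = 4.1e-05) in the direction opposite to a deletion. The table holds 1 value per gene, so the deleted segment cannot be told apart from the rest of *Adar*. For this reason the libraries are named by their labels, as control-labelled or mutant-labelled, and each direction rests on those labels. Beside this, all 20 genes of the myelin list and 21 of the 22 of the cholesterol list were called lower in the mutant-labelled libraries.

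A gene catalogue built from expressed sequences holds many loci that no curated gene covers. Such loci can be long noncoding RNAs, RNA of the strand opposite a gene, stretches of introns, ends of transcripts that run past the annotated gene, and retrocopies, which are processed pseudogenes made when the spliced mRNA of a gene was copied back into the genome. SCs that build myelin make large amounts of myelin proteins and of cholesterol and other membrane lipids, and a few genes of these pathways are among the most abundant RNAs of a nerve.

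The most read of the 53 loci holds a retrocopy, whose sequence shows what it shares with a coding gene. In GENCODE M21 (GRCm38, the assembly of mm10), 3 of the loci hold a processed pseudogene on their own strand, and the closest coding transcript of each by BLAST came from the cholesterol pathway. GSMG0068239 (chr2:53694365-53696860, minus strand) holds *Gm13502*, a copy of *Idi1*, which encodes isopentenyl diphosphate isomerase. GSMG0003418 (chr10:93778518-93779814, plus strand) holds *Gm3571*, and GSMG0070676 (chr6:6735373-6736558, minus strand) holds *Gm5873*, both copies of *Fdps*, which encodes farnesyl diphosphate synthase. *Gm13502* covers 27.4% of its locus, which is otherwise mainly intergenic, *Gm3571* 81.7% and *Gm5873* 89.9%. *Gm13502* had no mismatch to *Idi1* over its 684 bases, *Gm3571* had 10 mismatches and 2 gap columns over 1062 aligned columns (98.9% identical), and *Gm5873* had 28 mismatches and 7 gap columns over 1066 (96.7% identical). The 120 bases shown for *Fdps* are coding positions 764 to 883, the ungapped stretch with the most mismatches over both copies, and those shown for *Idi1* are coding positions 169 to 288, where the copy begins. All are 5′ to 3′ on the strand of the transcript, from the GENCODE M21 transcripts, with the bases that differ from the coding gene in capitals.
Idi1: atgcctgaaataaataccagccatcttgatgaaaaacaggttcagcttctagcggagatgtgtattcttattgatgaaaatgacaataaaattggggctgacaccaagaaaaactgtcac
Gm13502: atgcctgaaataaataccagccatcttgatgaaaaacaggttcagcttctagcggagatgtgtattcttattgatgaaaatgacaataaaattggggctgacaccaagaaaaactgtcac
Fdps: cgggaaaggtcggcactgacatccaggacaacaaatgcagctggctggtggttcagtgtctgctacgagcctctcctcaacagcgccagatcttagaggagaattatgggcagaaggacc
Gm3571: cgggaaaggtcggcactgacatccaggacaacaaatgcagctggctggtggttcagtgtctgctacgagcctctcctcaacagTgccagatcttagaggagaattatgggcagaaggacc
Gm5873: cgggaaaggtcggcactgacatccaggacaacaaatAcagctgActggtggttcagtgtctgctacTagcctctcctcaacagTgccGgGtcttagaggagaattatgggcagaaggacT

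In this stretch *Gm3571* had 1 mismatch to *Fdps* and *Gm5873* had 7. Reads were 130 bases long, and a window of 130 bases without any mismatch to the coding gene made up 100% of the windows within the copy in *Gm13502*, 6.32% in *Gm3571* and 3.52% in *Gm5873*. Reads on *Gm13502* can therefore be shared with *Idi1*, and a small part of the single reads on *Gm3571* and *Gm5873* with *Fdps*. The windows take each read alone, although the reads were paired. The table has 1 value per locus, so reads on the copy cannot be told apart from reads on the rest of the locus, and how the counting treated reads with several positions is not given in the sources used here.

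GSMG0068239 had normalised read counts of 22771, 19385 and 23580.2 in control-labelled replicates 1 to 3 and of 2389, 2110.1 and 1510.3 in the mutant-labelled ones, 10.9-fold lower by the means. The coding gene *Idi1* (GSMG0009411) fell alongside it, from 25867, 21325 and 27107 to 2851, 2683 and 2104, a log2 difference of -3.29 (standard error 0.14, limma adjusted p = 3.34e-06). The whole locus stood at 88.6% ± 2.03 (SD, n = 3) of the *Idi1* value in control-labelled libraries and at 78.1% ± 6.04 in mutant-labelled ones, and these shares did not overlap. The 2 copies of *Fdps* were further from their relative. GSMG0003418 had values of 4564, 4296 and 5412 in the control-labelled libraries and of 704, 673 and 659 in the mutant-labelled ones. This was 22.7% ± 0.901 of *Fdps* in the control-labelled libraries and 23.6% ± 2.63 in the mutant-labelled ones, with overlapping shares. GSMG0070676 had 2149, 2295 and 2541 against 271, 259 and 222, or 11.1% ± 0.404 of *Fdps* against 8.63% ± 0.611, and these shares did not overlap. *Fdps* itself changed by -2.85 on the log2 scale (standard error 0.12, adjusted p = 3.14e-06). The rule required low mutant-labelled values of the loci and not of their coding genes, which favours lower shares. The shares were not compared over the other retrocopies, so nothing is read from those without overlap.

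**Figure D1:**
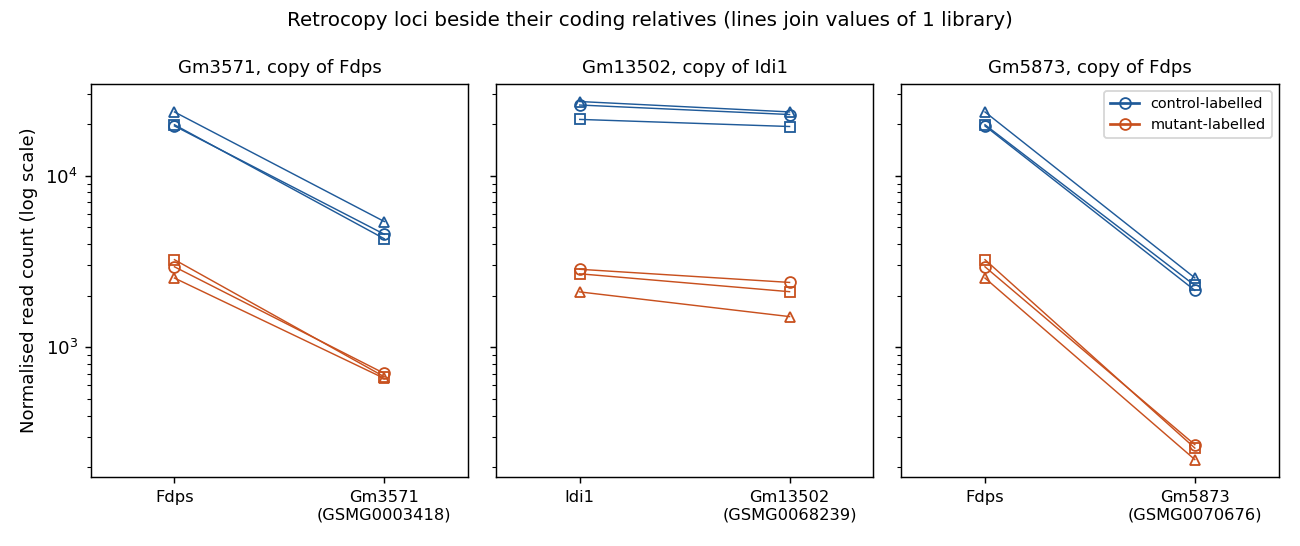
Normalised read counts (log scale) of the coding genes and of their retrocopy loci, with a line joining the values of 1 library. The locus of *Gm13502* lies close under *Idi1* in every library, while those of *Gm3571* and *Gm5873* lie at about 22.7% and 11.1% of *Fdps* in the control-labelled libraries.

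Other retrocopies were read in these nerves as well. Of the 1923 unnamed loci with every control-labelled value at or over 100, 318 hold a processed pseudogene on their own strand, and the closest coding gene of 284 was tested. That gene was called lower for 11 loci, 6 of which were called lower themselves and 3 of which are the loci described here. For the other 273 loci, 5 were called lower and 0 are among the 53. Spearman's rho between the log2 differences of locus and coding gene was 0.76 over the 284 loci, which share their libraries and can share reads.

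Across all 53 loci, the mean normalised read count ran from 111 to 21912 in control-labelled libraries, with a median of 387. In mutant-labelled libraries it ran from 2.77 to 2003, with a median of 37.7. These values are reads per locus and not per length, so they do not rank the loci by level. The ratio of the group means had a median of 8.85 and ran from 5.17 for GSMG0012758 to 64.6 for GSMG0016788. All 53 loci passed the filter on low values and were called lower by limma (unadjusted p at or under 0.05 and at least 2-fold), with Benjamini-Hochberg adjusted p from 3.14e-06 to 0.0371. Among all 25802 features tested, 10.4% were called lower and 13.9% higher, and among the 9153 unnamed features tested 12.8% were called lower. Of the 1923 unnamed loci with every control-labelled value at or over 100, 22.4% were called lower and 2.76% met the limit on the mutant-labelled values. The choice used the same contrast, so nothing follows from the count of 53. The median log2 difference was -3.16 for the 53 loci and 0.03 for all features tested.

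The mutant-labelled values of a locus spread more than the control-labelled ones in most loci. The highest control-labelled value of a locus was at most 2.6 times its lowest, with a median of 1.33. The same ratio had a median of 2.04 in mutant-labelled libraries, over the loci with no library at 0, and in 7 of these the control-labelled values had the larger ratio. In the mutant-labelled libraries, 17 loci had a highest value over 5 times the lowest (a lowest value of 0 included), and 6 loci had 0 reads in 1 library. That library was mutant-labelled replicate 2 for GSMG0005187, GSMG0009172, GSMG0016788, GSMG0038907 and GSMG0066477, and replicate 3 for GSMG0029311. A count of 0 allows up to 3 reads, a value of 2.89 in replicate 2 and of 2.97 in replicate 3 (this covers counting error only, as the reads carry no molecular identifiers and PCR copies cannot be set aside). Mutant-labelled replicate 1 had the highest value of the 3 in 33 loci (62.3%), and it did so in 53.9% of all 2671 features called lower. Replicate 2 had the lowest value in 27 loci (50.9%, against 43.7% of all features called lower). The summed value of 4 SC markers (*Sox10*, *S100b*, *Erbb3* and *Cdh19*) was also highest in replicate 1 and lowest in replicate 2, with 18442, 12542 and 16319.7 in replicates 1 to 3, against 33688 to 33908 in control-labelled libraries. *S100b* and *Erbb3* were called lower, and *Sox10* and *Cdh19* received no call. Their part in the result was not tested.

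**Figure D2:**
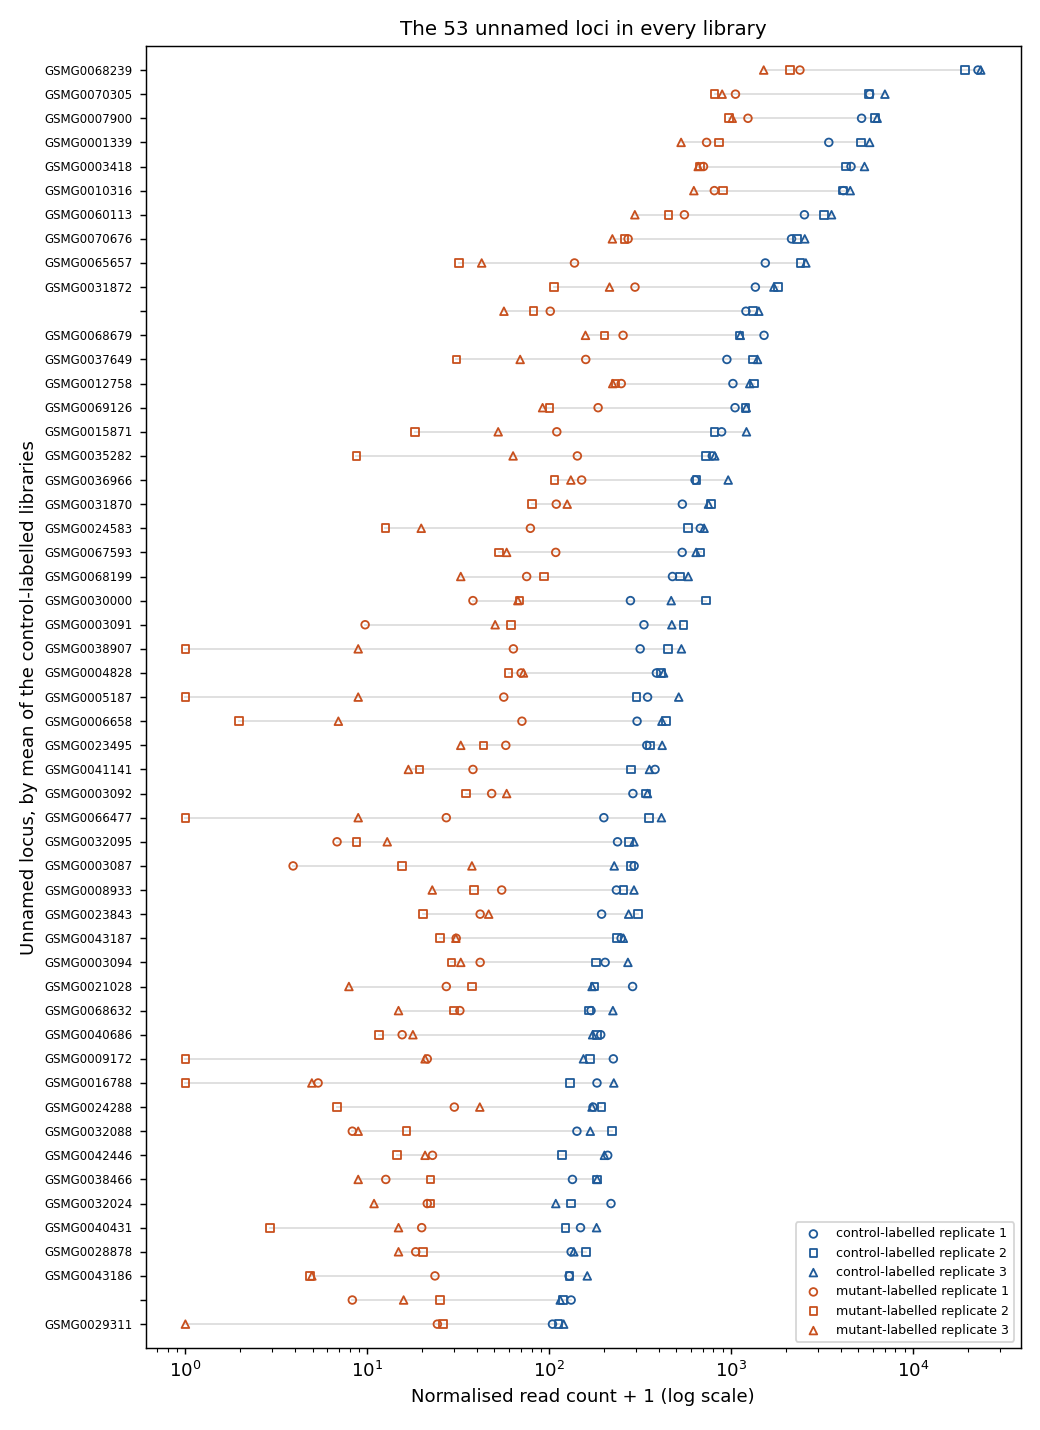
Normalised read count + 1 (log scale) of the 53 loci in the 6 libraries, ordered by the mean of the control-labelled libraries, with 2 loci left without a label. The highest control-labelled value is over 2 times the lowest in 3 loci, and the mutant-labelled values spread widely in GSMG0038907 and GSMG0005187, with 0 reads in a library, and in GSMG0006658, which has none at 0.

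At the limit of the rule, the highest mutant-labelled value was 0.2496 times the lowest control-labelled value in GSMG0001339, 0.243 times in GSMG0029311 and 0.243 times in GSMG0012758. Just outside it were GSMG0032186 with 0.254, GSMG0012735 with 0.254 and GSMG0067340 with 0.257. GSMG0012735 lies on the strand and in the region of *Pcdh9*, as GSMG0012758 does. The lowest values in a single control-labelled library were those of GSMG0029311 (103, 111 and 119, against 23.3, 25.1 and 0) and GSMG0032024 (218, 130.4 and 108, against 20.4, 21.2 and 9.89).

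The 53 loci lie on 19 chromosomes, 27 on the plus and 26 on the minus strand. Their length had a median of 2916 bp, beside 2666 bp for the 1923 unnamed loci with control-labelled values at or over 100 and 1160.0 bp for all unnamed loci. The shortest was GSMG0043186 with 387 bp and the longest GSMG0070305 with 64261 bp, and 27 loci were 2 to 4 kb long. A named gene lay within 50 kb of 50 loci (94.3%, against 90.5% of the 1923). A named gene of the same strand overlapped 16 loci (30.2%, against 21.6%), and 19 loci overlapped a named gene only on the opposite strand (35.8%, against 36.1%). The other 18 loci overlapped none. By GENCODE M21, the largest part of the locus was intron of a gene on its own strand in 20 loci (37.7%, against 21.3% of the 1923), exon of a noncoding gene in 7 (13.2%, against 23.5%) and 3′ untranslated region in 6 (11.3%, against 11%). It was exon or intron of a gene on the opposite strand in 5 and 9 loci and intergenic in 6, and coding sequence of its own strand in 0, against 2.5% of the 1923. A GENCODE gene with the same ends (within 2 bases) existed for 11 loci, and 15 loci had no GENCODE gene on their strand.

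Most loci on the strand opposite an abundant gene were lower together with that gene. Of the 19 loci that overlapped a named gene only on the opposite strand, 11 had under 5% of the reads of such a gene in control-labelled libraries, from 0.243 to 3.64%. Their genes included *Hmgcs1* (for 2 loci), *Fxyd6*, *Scd2*, *Pllp*, *Insig1*, *Maml3*, *Celsr2*, *Pkig* and *Sept3*, and all of these but *Pkig* were called lower. The share of the gene's reads overlapped between the groups in 7 loci and did not in 4. Among all 400 pairs of an unnamed locus under 5% and its opposite gene, with control-labelled values of the locus at or over 100, the shares did not overlap in 18.5% (lower in every mutant-labelled library in 12.2%, higher in 6.25%). The loci were chosen for low mutant-labelled values, so nothing is read from their count. Libraries were oriented, but whether the counting used the strand is not given in the sources used here, so reads of a gene and of its opposite strand may not be fully separated.

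*Insig1* and *Hmgcs1* belong to the cholesterol pathway, and 3 of the loci lie opposite them. GSMG0068199 (chr5:28071125-28078665, minus strand) lies opposite *Insig1*, which encodes a protein of the endoplasmic reticulum that holds back the activation of sterol genes. It had 475, 522 and 580.4 in control-labelled and 74.2, 92.6 and 31.7 in mutant-labelled libraries, at 2.29% ± 0.172 and 2.45% ± 1.03 of the *Insig1* reads, which overlapped. Opposite *Hmgcs1*, the synthase of hydroxymethylglutaryl-CoA, GSMG0043187 (also *Gm48342* in GENCODE) had 248, 234 and 255 against 29.8, 24.1 and 29.7. The shorter GSMG0043186 had 128, 129 and 161 against 22.5, 3.86 and 3.96. Their shares of the *Hmgcs1* reads also overlapped between the groups, at 0.430% ± 0.0170 and 0.538% ± 0.117 for the first and at 0.243% ± 0.0271 and 0.163% ± 0.132 for the second. *Insig1* and *Hmgcs1* were lower by log2 differences of -3.12 and -3.45. Of the 22 genes in the cholesterol list, 21 were called lower.

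GSMG0070305 (chr19:44293407-44357667, minus strand), the longest of the loci, runs opposite *Scd2* and *Scd4*. *Scd2* encodes a stearoyl-CoA desaturase, which makes monounsaturated fatty acids. The locus had 5779, 5754 and 7010.2 in control-labelled and 1056, 810.5 and 892 in mutant-labelled libraries. It stood at 1.997% ± 0.0780 of the *Scd2* reads in control-labelled and at 2.03% ± 0.0884 in mutant-labelled libraries, although the *Scd2* values themselves went from 308943 ± 23385 to 45332 ± 6709.8. *Scd4* was far less read (105 ± 24.7 against 44.5 ± 14.9).

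The myelin list had 3 genes near the loci, and all 20 of its genes were called lower. *Pllp* encodes plasmolipin, a membrane protein of myelin, and GSMG0037649 (*Gm45767* in GENCODE) lies opposite it. That locus had 947, 1324 and 1396 in control-labelled and 158, 29.9 and 68.2 in mutant-labelled libraries. Its share of the *Pllp* reads was higher in every mutant-labelled library, at 4.15% ± 1.63 against 2.15% ± 0.220. *Pllp* had a log2 difference of -5.02 (standard error 0.70) and the locus one of -4.11. *Gal3st1*, the sulfotransferase of the myelin lipid sulfatide, holds GSMG0004828 on its own strand, with 388, 412 and 425 against 69.1, 58.9 and 71.2. Past the end of *Mal*, which encodes the myelin and lymphocyte protein, GSMG0023495 lay 6265 bp downstream on the same strand, with 343, 356 and 417 against 56.7, 42.5 and 31.7. *Gal3st1* and *Mal* changed by -2.08 and -3.03 on the log2 scale. Of the SC list, 17 of 31 genes found were called lower and 1 higher. An unnamed locus with control-labelled values at or over 100 overlapped 10 of these genes, and the 53 loci overlapped 0. Of all 1923 such unnamed loci, 2.76% are among the 53, so nothing is read from the 0.

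Among the remaining loci opposite an abundant gene, GSMG0067593 stood at 2.98% ± 0.113 and 3.06% ± 0.131 of the reads of *Celsr2*, a cadherin of planar cell polarity. *Celsr2* went from 20697 ± 1711 to 2393 ± 1107. GSMG0040686 stood at 0.374% ± 0.0424 and 0.325% ± 0.116 of *Fxyd6*, a regulator of the sodium pump. The shares of both loci overlapped between the groups. GSMG0024288 opposite *Maml3*, a coactivator of Notch, and GSMG0023843 opposite *Pkig*, an inhibitor of protein kinase A, had larger differences than their genes. The first went from 2.63% ± 0.251 to 0.775% ± 0.504 of *Maml3*, and the second from 3.46% ± 0.507 to 0.743% ± 0.324 of *Pkig*, both without overlap. The rule required a low mutant-labelled value of the locus and not of the gene, so it favours both. GSMG0066477 lies opposite a septin gene whose symbol the table holds as sept-03 (*Sept3* in GENCODE), with shares of 3.64% ± 1.06 and 1.55% ± 1.36 that overlapped.

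**Figure D3:**
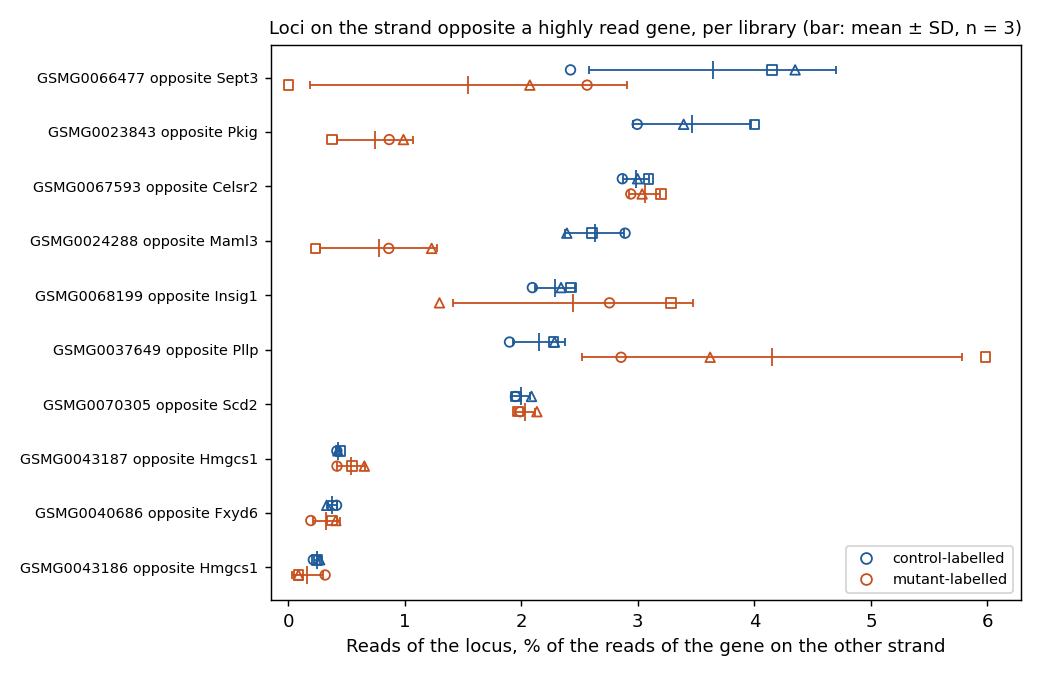
Reads of 10 loci as a percentage of the reads of the gene on the opposite strand, per library, with mean ± SD (n = 3). The shares of GSMG0070305 and GSMG0067593 are close in all libraries, whereas those of GSMG0023843 and GSMG0024288 are lower in every mutant-labelled library.

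Locus and opposite gene were also compared across all unnamed loci with control-labelled values at or over 100. In 400 pairs where the locus had under 5% of the reads of the gene on the opposite strand, Spearman's rho between their log2 differences was 0.86. In 279 pairs with a larger share it was 0.24. Where the gene was called lower, 48 of 55 loci with a small share were called lower, and 10 of 24 with a larger share. Where it was not, 21 of 345 and 70 of 255 were. Both members of a pair come from the same libraries, so these values describe the table and carry no test. GSMG0070305 counts among the larger shares here, because its longest overlap is with *Scd4*.

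**Figure D4:**
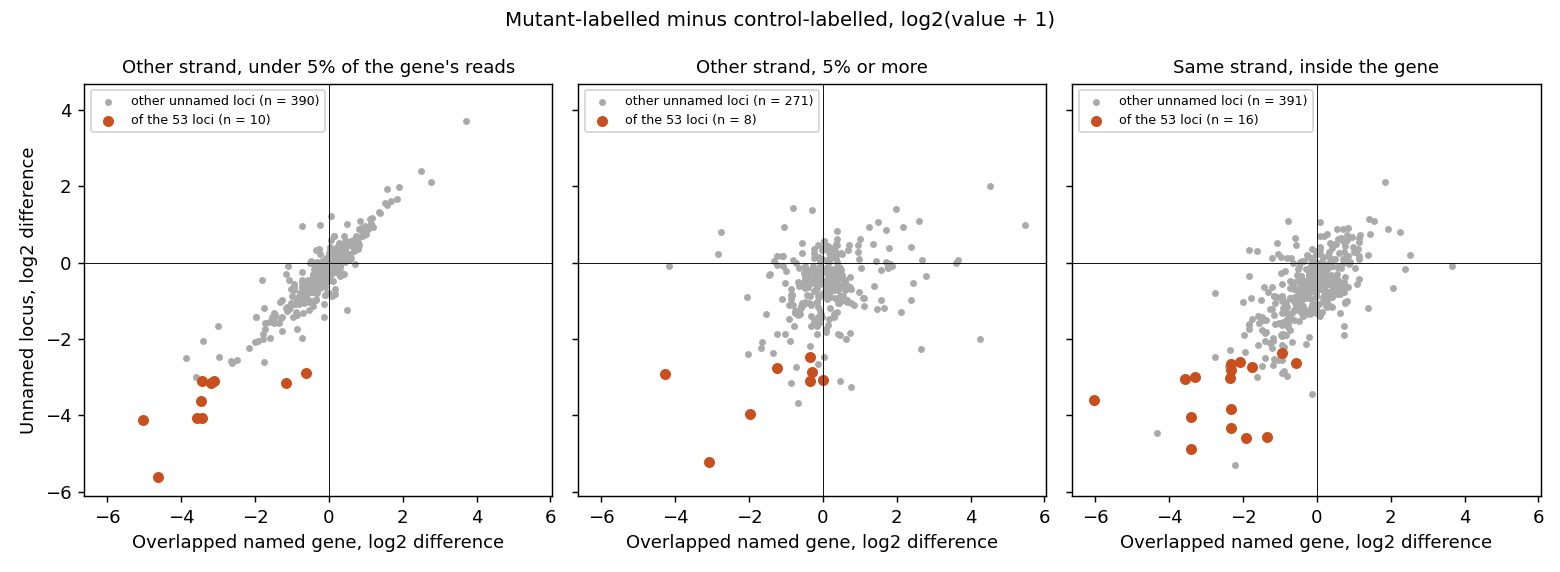
Log2 differences (mutant-labelled minus control-labelled, log2(value + 1)) of unnamed loci against those of the named gene they overlap, for opposite-strand loci under 5% of the gene's reads, opposite-strand loci at 5% or more, and same-strand loci. The first panel has the tightest relation (Spearman's rho 0.86, n = 400), and 2 of the 53 loci in it, GSMG0023843 (-2.90, with *Pkig* at -0.61) and GSMG0024288 (-3.14, with *Maml3* at -1.17), lie below the other points of similar genes.

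Loci inside a gene of their own strand made up 16 of the 53 and lay in 12 genes, 10 of which were called lower (9.01% of the 16649 named features tested were, and 55 of the 344 genes in this position for all 1923 unnamed loci). *Ctnna3*, which encodes alpha-T-catenin, held 4 of them in its introns. GSMG0003087 had 292, 281 and 227 in control-labelled and 2.91, 14.5 and 36.6 in mutant-labelled libraries, and GSMG0003091 had 331, 546 and 471 against 8.73, 60.8 and 49.5. GSMG0003092, 806 bp further on, had 288, 339 and 346 against 47.3, 33.8 and 57.4, and GSMG0003094 had 202, 180.5 and 269.9 against 40.7, 27.98 and 31.7. The 4 loci did not share an order of the mutant-labelled libraries, since replicate 1 was the lowest in the first and second and the highest in the last. *Ctnna3* went from 798 ± 89.6 to 175 ± 89.8, a log2 difference of -2.33 (standard error 0.38, limma adjusted p = 0.002). GSMG0003091, GSMG0003092 and GSMG0003094 also lie opposite *Lrrtm3*, which was called lower (log2 difference -1.72). *Lrrtm3* had 173, 164 and 158 in control-labelled and 29.1, 48.2 and 85.1 in mutant-labelled libraries, lowest in replicate 1, while *Ctnna3* was highest there.

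*Lrrtm4*, a leucine-rich repeat membrane protein of synapses, held 2 loci that GENCODE lists as genes of their own. GSMG0032088 (*Gm44240*) had 141, 220.2 and 167 in control-labelled and 7.27, 15.4 and 7.91 in mutant-labelled libraries. GSMG0032095 (*Gm44242*) had 237, 274 and 291 against 5.82, 7.72 and 11.9, with a log2 difference of -4.87 beside -3.41 for *Lrrtm4*. Single loci lay in the introns of *Sdk1*, an adhesion molecule, *Magi2* and *Mpp6*, scaffold proteins of the membrane, *Galntl6*, *Ston2* and others. *Galntl6* and its locus GSMG0038466 differed most in the other direction, with -6.05 for the gene and -3.60 for the locus. GSMG0024583 overlaps *S100a3* by 667 of its 24750.0 bp and had 676, 580.2 and 710 against 77.8, 11.6 and 18.8.

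In 2 of the 12 genes the host received no call. GSMG0068679 in *Mical3*, which encodes an actin-oxidising enzyme, went from 1517, 1110.3 and 1123 to 254, 201 and 157. *Mical3* had 654, 754 and 688 against 641, 347 and 461, values that did not overlap but received no call (log2 difference -0.57, standard error 0.22, adjusted p = 0.0786). GSMG0012758 in *Pcdh9*, a protocadherin, went from 1023, 1336 and 1266 to 248, 231 and 223. *Pcdh9* had a log2 difference of -0.95 (standard error 0.14, adjusted p = 0.00141), just under the 2-fold limit. The difference between locus and host was larger in some genes that were called, such as *Ston2* (-1.36, with -4.56 for GSMG0009172) and *S100a3* (-1.91, with -4.60 for GSMG0024583). Over the 407 same-strand pairs of unnamed loci with control-labelled values at or over 100, Spearman's rho of locus and host was 0.61.

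A further 18 loci (34%, against 27.7% of the 1923) lay up to 10 kb past the end of the nearest named gene of their own strand. These were 17 genes, of which 16 were tested, 11 called lower and 0 called higher. For all 1923 unnamed loci, the genes in this position were 509, of which 44 were called lower and 43 higher. The closest was GSMG0065657 (chr11:114790668-114796391, plus strand), 93 bp past *Kif19a*, which encodes a kinesin. It had 1541, 2409 and 2576 in control-labelled and 136.8, 30.9 and 41.5 in mutant-labelled libraries, and *Kif19a* had 20019, 22456 and 22607 against 2209, 282 and 942. The order of the mutant-labelled libraries was the same in both. GSMG0038907, 942 bp past *Marveld3*, a gene of tight junctions, had 315, 449 and 532 against 62.6, 0 and 7.91. *Marveld3* had 756, 794 and 973 against 182.6, 5.79 and 55.4, again lowest in replicate 2. *Phlpp2* lies nearer to this locus, 133 bp away on the other strand, and had no call (log2 difference -0.14).

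The genes of 3 enzymes were each followed closely by a locus. GSMG0007900 lay 352 bp past *Mboat2*, an acyltransferase of phospholipids, and had 5217, 6161 and 6355 in control-labelled and 1237, 975 and 1014 in mutant-labelled libraries. GSMG0036966 lay 668 bp past *Cers4*, a ceramide synthase, with 633, 643 and 963 against 149.8, 106 and 131. GSMG0041141 lay 350.0 bp past *Chst2*, a sulfotransferase of sugars, with 381, 281 and 355 against 37.1, 18.3 and 15.8. GENCODE places these 3 loci mainly in the 3′ untranslated region of the gene before them. *Mboat2*, *Cers4* and *Chst2* changed by -1.21, -1.52 and -2.22 on the log2 scale, beside -2.46, -2.51 and -3.86 for their loci. The rule required a 4-fold lower value of the loci and not of the genes, so the larger change of the loci was chosen.

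GSMG0060113 lay 369 bp past *Wwp1*, a ubiquitin ligase, and had 2529.6, 3232 and 3566 against 553, 453 and 295. GSMG0010316 lay 896 bp past *Gpr137b-ps* and had 4139.7, 4130.2 and 4519 against 808, 899 and 623. *Mpp6* had a locus inside (GSMG0031870) and another 4600 bp past its end (GSMG0031872), the latter with 1359, 1806 and 1718 against 295, 105 and 214. The opposite-strand genes that these loci and GSMG0065657 overlap were little read: *Rmdn1*, *Ero1lb*, *Dfna5* and *Btbd17* had mean control-labelled values of 386, 143, 214 and 47.7.

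GSMG0042446, 2212 bp past *Tenm1*, which encodes a teneurin, had 209, 116 and 200.2 against 21.8, 13.5 and 19.8, and GSMG0008933, 7615 bp past *Mdga2*, had 233, 255 and 291 against 53.8, 37.6 and 21.8. GENCODE places GSMG0042446 in the *Tenm1* 3′ untranslated region. *Tenm1* passed the threshold without an adjusted p under 0.05 (log2 difference -1.34, standard error 0.50, limma adjusted p = 0.0683).

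In this group 5 genes received no call. GSMG0032024 lay 5881 bp past *Serbp1*, which encodes an RNA-binding protein, and GENCODE places it mainly in the *Serbp1* 3′ untranslated region. *Serbp1* had 22341, 21954 and 23855 in control-labelled and 27835, 27974 and 28556 in mutant-labelled libraries, a log2 difference of 0.31 with no call, while the locus was 8.85-fold lower. *Sbspon*, 5654 bp before GSMG0001339 (3445, 5164 and 5780 against 732, 859.7 and 530.1), was at -0.88 on the log2 scale, and *Arl2bp*, before GSMG0037649, at -0.89. *Nim1k*, before the loci GSMG0043187 and GSMG0043186, was at 0.90 and *Psrc1*, before GSMG0067593, at 0.47. *Terf1*, which encodes a telomere-binding protein, is the nearest gene to GSMG0001339 on either strand and was higher in mutant-labelled libraries by 1.12, a call that was lost without control replicate 3 (log2 fold change of Terf1 then 0.9997).

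**Figure D5:**
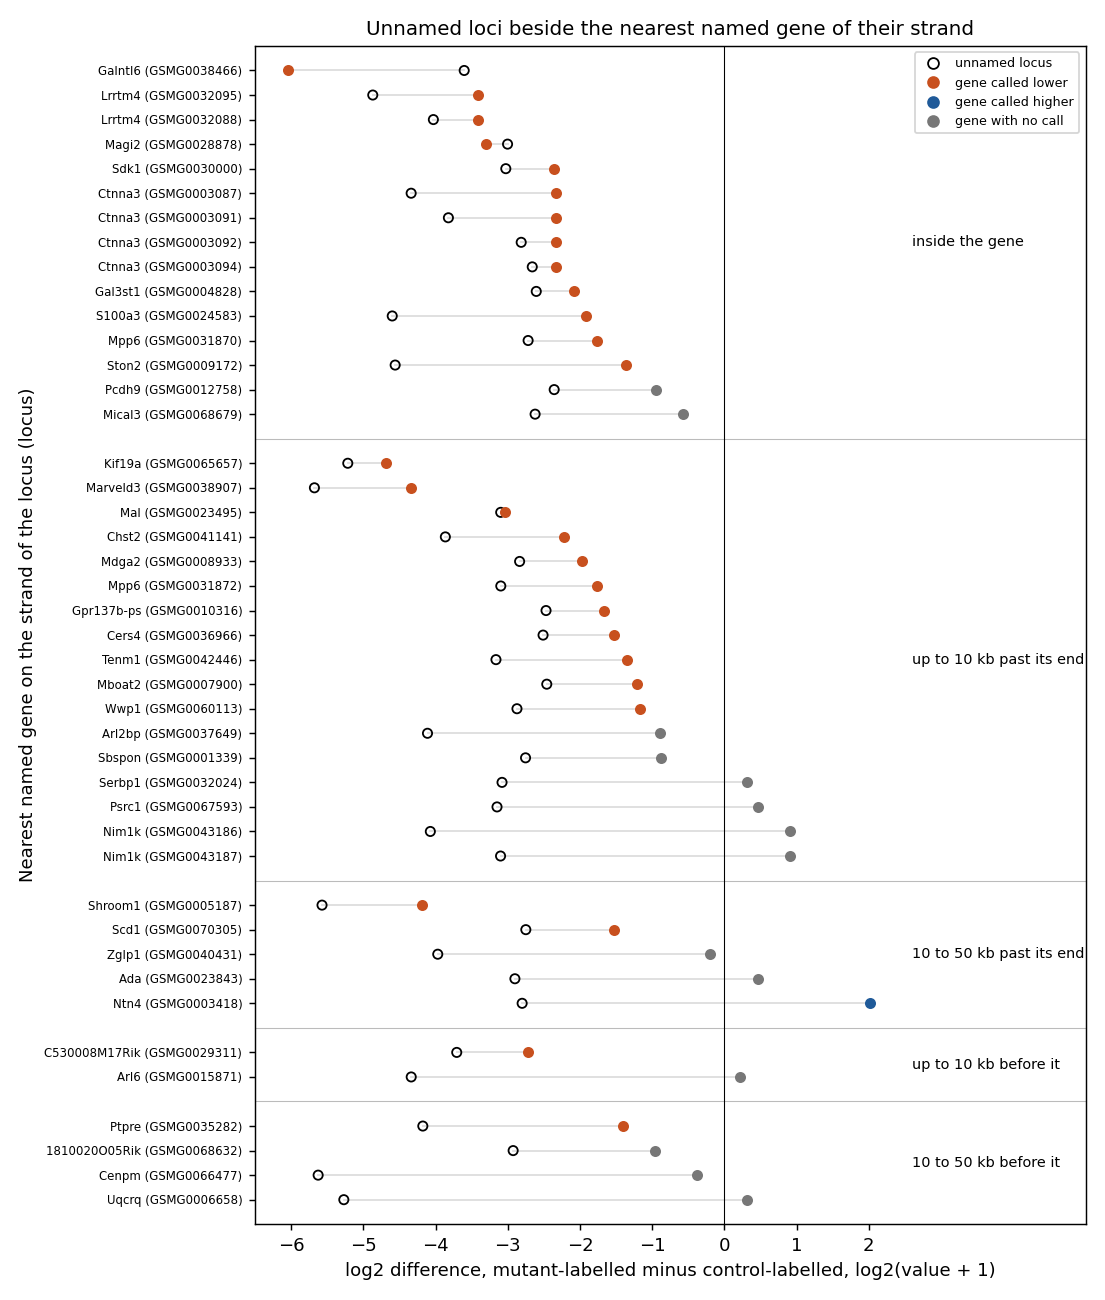
Log2 differences of the unnamed loci (open circles) and of the nearest named gene on the same strand (filled circles, coloured by its call), grouped by the place of the locus. Genes that hold a locus or lie up to 10 kb before it are mostly called lower, and *Ntn4* is the gene called higher.

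GSMG0006658 and GSMG0005187 on chromosome 11 overlap each other by 1340.0 bp on opposite strands. In GENCODE the first is 52.1% 3′ untranslated region and 47.9% coding sequence of *Sowaha*. It had 303, 437 and 416 in control-labelled and 69.8, 0.965 and 5.93 in mutant-labelled libraries. The second had 346, 300.5 and 514 against 55.3, 0 and 7.91, so both were highest in replicate 1 and lowest in replicate 2. Their nearest named gene, *Shroom1*, which encodes an actin-binding protein, changed by -4.19 on the log2 scale.

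Some loci overlapped no named gene of their own strand. GSMG0016788 (chr17:51859167-51863217, plus strand, *Gm37176*) had the lowest log2 difference of the 53, at -5.88, with 182, 129 and 226 in control-labelled and 4.36, 0 and 3.96 in mutant-labelled libraries. GSMG0035282 (chr7:135486027-135491315, plus strand), the lincRNA *Gm36356*, had 787, 726 and 812 against 142, 7.72 and 62.3. Its nearest gene on either strand, *Clrn3*, had too few reads to be tested, and *Ptpre*, a tyrosine phosphatase 46166 bp further on, changed by -1.41. GSMG0021028 (chr2:45357264-45404035, plus strand), the lincRNA *Gm13479*, had no named gene within 50 kb and had 286, 177 and 171 against 26.2, 36.7 and 6.92. GSMG0040431 (*Gm26592*), opposite *Icam5*, had 148, 122 and 181 against 18.9, 1.93 and 13.8, and GSMG0068632, opposite *Efcc1*, had 169, 164 and 223 against 31.3, 28.9 and 13.8. Their mean shares of the reads of those genes in control-labelled libraries were 144% and 32.3%, and *Icam5* and *Efcc1* changed by -1.96 and -4.28. GSMG0015871 had 886, 811 and 1214 against 109, 17.4 and 51.4. It lies opposite *4930547E14Rik*, which had 0 reads in every library, and between *Arl6*, which had no call, and *Epha6*, an ephrin receptor of the same strand that changed by -3.14. GSMG0069126, before the start of *Prdm16* on the other strand, had 1050.5, 1200.0 and 1211 against 184.8, 99.4 and 91.0, and *Prdm16*, a transcriptional regulator, changed by -1.31.

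Counted over all loci, the nearest named genes were 43, of which 40 were tested. Of these 30 were called lower, 2 higher (*Ntn4* and, except without control replicate 3, *Terf1*, as above) and 8 received no call, with a median log2 difference of -1.96, beside 9.01% of named features called lower. The nearest genes that overlap none of the 53 loci were 14, and 9 of the 12 tested were called lower. All these genes, here and by position above, were reached through loci chosen for low values in the same libraries. They can share reads with those loci, so nothing is read from these counts. *Ntn4*, which encodes a netrin, is the nearest gene to the *Fdps* retrocopy GSMG0003418, at 32546 bp, and rose by 2.02 on the log2 scale.

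Markers of other cells moved between the groups too. The summed value of 10 skeletal muscle markers was 6623 to 34698 in control-labelled and 43858 to 326480.0 in mutant-labelled libraries, with 9 of 10 called higher. The sum of 5 macrophage markers was 10234 to 13330 against 3746 to 5422 (3 called lower), and that of the 3 erythroid markers found was 32073 to 42735 against 2939 to 9011 (3 called lower). Of the 4 SC markers named above, 2 were called lower. The 6 fibroblast and perineurial markers summed to 1218630.0 to 1390710.0 against 488868 to 759861 (1 called lower). Of these 6, only 2 had every mutant-labelled value below the control-labelled ones, and 1 had every mutant-labelled value above them. Endothelial sums (13991 to 20957 against 19379 to 26721), adipocyte sums (5305 to 11315 against 3177 to 23388) and lymphocyte sums (34.2 to 95.4 against 57.4 to 129) overlapped, with 0 markers of the 3 lists called, and no marker found was at 0 in all libraries. The part of these cells in the lower values of the 53 loci was not tested.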

How the data were processed

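RNA of P4 sciatic nerves from 3 control-labelled and 3 mutant-labelled animals was sequenced as paired reads of 130 bases. Per the labels, the submitters' processing notes name FastQC, Picard, SAMtools, STAR 2.4.0, DESeq and mm10. The authors deposited 1 table with a signal per feature and library, which holds counts of reads on constitutive regions of FAST DB features divided by size factors, as the methods describe. Dividing each library by its value of 1 read (0.727 to 1.27) gave whole numbers (within 0.01 reads) for 100% of the values, to 50938349 to 78250094 reads on features per library, and these reads entered edgeR and DESeq2. For mutant replicate 3 that value is 0.989, and the automatic check of units did not accept it as recovered reads.

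The 53 loci and all gene and marker lists were chosen with earlier results of these data known. log2(value + 1) was fitted with limma (lmFit, eBayes with trend), mutant minus control, for the 25802 features whose mean reached 10 in a genotype. A call is an unadjusted p at or under 0.05 with at least a 2-fold change, and p-values were adjusted by Benjamini-Hochberg across every tested feature. Such log2 differences understate the change of features with few reads. The replicates are separate animals. An exact permutation test of 3 against 3 cannot give a two-sided p under 0.1. The fit was tested on simulated data with known changes. Errors are SDs over 3 libraries.

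Named genes were taken by overlap, then by the smallest gap within 50 kb. The loci named by rule were those with the highest control means and the lowest log2 differences, those nearest a gene of the myelin, cholesterol or SC lists, those at the limit of the rule and those with the lowest control values (29 loci), with their nearest genes and *Adar*. The other loci and genes were named after their values were seen. GENCODE M21 transcripts were compared with BLAST 2.17.0 and aligned with Biopython 1.88. R 4.3.3, limma 3.58.1, edgeR 4.0.16, DESeq2 1.42.0, Python 3.11.15, numpy 2.4.6, pandas 2.3.3 and matplotlib 3.10.9 were used. The values of some single genes and of 2 of the 53 loci are not reported here. No genome was used here, so a planned count of polyadenylation hexamers and A-runs at the ends of the loci was not made.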

Additional observations from a re-analysis of the deposited data

How the results depend on the processing

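The choice of the loci by the same contrast favours their call in any fit, so their calls are no sign of stability. All 53 loci were called lower in each of the 12 other settings of the fit (pseudocounts of 0.1 and 10, no filter or a minimum mean of 50, rescaling to the same total, the same 75th percentile or by TMM, a call on adjusted p, edgeR, DESeq2, eBayes with no trend and the replicate block) and with each library left out. A lowest control value of 200 left 35 loci, a mutant limit of 0.5 gave 190 and a limit of an eighth gave 7. Rescaling gave 42 loci (same total), 58 (same 75th percentile) and 54 (TMM), and leaving out a library gave 57 to 79. Same-total scaling moved the median log2 difference of all features from 0.03 to 0.20, and the median of the 53 loci from -3.16 to -3.005. Rescaling gave 2156 features called lower and 4261 higher (same total) or 3137 and 3175 (same 75th percentile), beside 2671 and 3580. Features called lower ranged from 2391 to 2743 with each library left out, and nearest named genes called lower from 28 to 31. The median length of the loci ranged from 2908 to 3175 bp with a library left out. The nearest named gene on the strand of the locus was called lower in 24 of 38 genes tested, and with genes that overlap a locus left out the count of 30 became 9.

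With the replicate number as a block, limma called 2589 features lower instead of 2671, and all 53 loci and 30 nearest genes were still called lower. Same-numbered libraries did not deviate together (correlations of their deviations from the group means of -0.0619, -0.0555 and 0.00891), so the numbers were not treated as pairs, and the block changed none of these counts by over 1.5 times. Among 55 named loci and genes, without control replicate 3 the log2 fold change of Terf1 (0.9997) and the log2 fold change of Scd4 (-1.107) lost their call, and *Pcdh9* gained a call with the same 75th percentile, without control replicate 1 and without mutant replicate 3. The other 983 values kept their direction and their side of the threshold. The cause was not tested. Depth limits the loci with 0 reads in a mutant-labelled library, whose log2 differences depend on the pseudocount.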
